A study of Mus musculus with 48 samples.

Results

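The 10 genes described here encode precursors of neuropeptides made by cortical neurons: Sst, Cort, Npy, Vip, Tac1, Tac2, Crh, Penk, Pdyn and Cck. They were taken by symbol from the 24444 genes of a table of cortical expression, and all 10 passed the filter on low values at every age. RNA was sequenced from the cortex of 1 hemisphere of each of 48 male C57BL/6J mice, taken at E14.5 or at an age of 1, 6 or 12 months. Each age had 6 wild-type (WT) and 6 Chd8 V986*/+ (HET) mice, and the controls were littermates. Chd8 encodes an ATP-dependent chromatin remodeler linked to autism. The V986* allele is a CRISPR/Cas9 insertion of tandem stop codons, carried in all cells of the body and passed on from a single founder. The study asked how losing 1 copy of Chd8 bears on cortical gene expression before birth, in youth and with age. Values are variance-stabilized (VST) expression on a log2 scale, so that where expression is high a difference of 1 means about a doubling. Close to the baseline of the scale, 2.14, which was the most frequent value in the table, differences come out too small. Read counts and sequencing depth were not used here, and VST values are not scaled to gene length, so levels are compared between mice and not between genes.

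Neuropeptides are cut from larger precursors in dense-core vesicles, are released during sustained firing and act on G protein-coupled receptors. In the cortex they mark classes of inhibitory interneuron. Sst, Cort, Npy and Tac1 are typical of interneurons born in the medial ganglionic eminence, Vip of those born in the caudal ganglionic eminence, and Cck is made by some interneurons and by many excitatory neurons. In the striatum, which lies directly beneath the cortex, projection neurons make Penk in the indirect pathway and Tac1 and Pdyn in the direct pathway.

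Sst and Cort are related genes whose peptides, somatostatin and cortistatin, share receptors. Sst lies at chr16:23889667-23890930 and Cort at chr4:148499143-148500872 in mm9, both on the minus strand. The last 14 codons before the stop codon, which encode the mature 14-residue peptides, are shown because they are where the genes are alike. They lie in the coding part of exon 2 of 2 of each gene, at chr16:23889818-23889859 for Sst and chr4:148499376-148499417 for Cort (mm9, minus strand, GENCODE vM1). Capitals mark the bases that are the same in both when Cort is shifted by 1 codon, 31 of the 39 bases aligned.
Sst: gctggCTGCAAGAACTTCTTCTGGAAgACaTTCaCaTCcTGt
Cort: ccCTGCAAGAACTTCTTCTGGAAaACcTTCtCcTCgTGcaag
The longest run shared exactly by the whole transcripts, of 599 and 677 bases, was 21 bases, and it lies in this stretch.

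The promoters of Sst and Cort are shown because a cAMP response element, the site of CREB, is a textbook feature of the first. RefSeq windows from 250 bases before to 50 after the start were available for 8 of the 10 genes, with Crh and Penk not matched (GRCm38.p6). Capitals mark the motif TGACGTCA or its 5-base core TGACG, read on either strand, the core being counted inside the longer motif as well. The Sst window is chr16:23890795-23891094 and the Cort window chr4:149126714-149127013, both on the minus strand.
Sst: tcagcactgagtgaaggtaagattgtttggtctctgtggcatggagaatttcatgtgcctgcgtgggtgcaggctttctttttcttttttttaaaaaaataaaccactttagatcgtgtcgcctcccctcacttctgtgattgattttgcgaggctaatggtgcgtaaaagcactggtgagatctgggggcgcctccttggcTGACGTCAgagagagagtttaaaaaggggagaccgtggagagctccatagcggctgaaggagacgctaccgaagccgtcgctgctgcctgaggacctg
Cort: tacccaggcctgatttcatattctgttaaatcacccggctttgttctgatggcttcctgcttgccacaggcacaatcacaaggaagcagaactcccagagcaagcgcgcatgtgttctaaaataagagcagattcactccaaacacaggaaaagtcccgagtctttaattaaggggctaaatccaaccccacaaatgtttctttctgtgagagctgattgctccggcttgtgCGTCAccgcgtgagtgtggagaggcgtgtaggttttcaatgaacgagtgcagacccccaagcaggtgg
The full motif began 48 bases before the start of Sst and was in none of the other 7 matched genes, against 1.79% of all 32851 windows. The core was in the windows of 5 of the 8 matched genes (Sst, Cort, Tac1, Vip and Cck), against 20.8% of all windows. A match is a run of letters and not evidence of binding.

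Chd8 itself checked the labels: it was at 62.7 to 68.8% of the WT level in HET cortex and was called lower at all 4 ages. Markers of other tissue moved with some libraries. At E14.5 the mean of 19 midbrain, hindbrain and spinal cord genes was 5.17, 5.17 and 6.62 in WT replicates 2, 3 and 5, against 3.23 to 4.23 in the other WT and 3.13 to 4.48 in the HET embryos, and all 16 tested members of that list were lower in HET (median −1.23, all genes 0.001). After birth the mean of 9 striatal genes ranged from 8.10 to 10.04 between mice. At 12 months it was 9.47 to 10.04 in WT and 8.84 to 9.92 in HET mice, the 2 lowest being HET replicates 3 and 5, and all 9 genes had values below WT (median −0.28, all genes 0.005). The mean of 7 hypothalamic genes was 5.12 at most. No marker of the ganglionic eminences, astrocytes, oligodendrocytes, microglia, endothelium, choroid plexus, blood or activity was called in a single-age fit by limma. At an unadjusted p below 0.05 there were 0 to 3 genes of each list at each age. In order of age, 4.56%, 8.80%, 7.59% and 11.6% of all genes had such a p. The count of 3 was that of 4 oligodendrocyte genes at 6 months (all 4 lower in HET, median −0.20) and of 12 activity genes at 1 month (median −0.07). At 6 months 2 of 4 astrocyte genes had such a p, all 4 being higher in HET (median 0.13). Excitatory cortical markers (Emx1, Tbr1 and others) were detected in all groups, with list means of 10.80 or more in every sample. At E14.5 the mean of these 9 genes was 11.31 ± 0.33 in WT and 11.60 ± 0.18 in HET embryos (SD, n = 6). Of the 9, 8 were higher in HET (50.4% of all genes) and 4 had an unadjusted p below 0.05 (4.56% of all genes). None was called by limma.

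**Figure D1:**
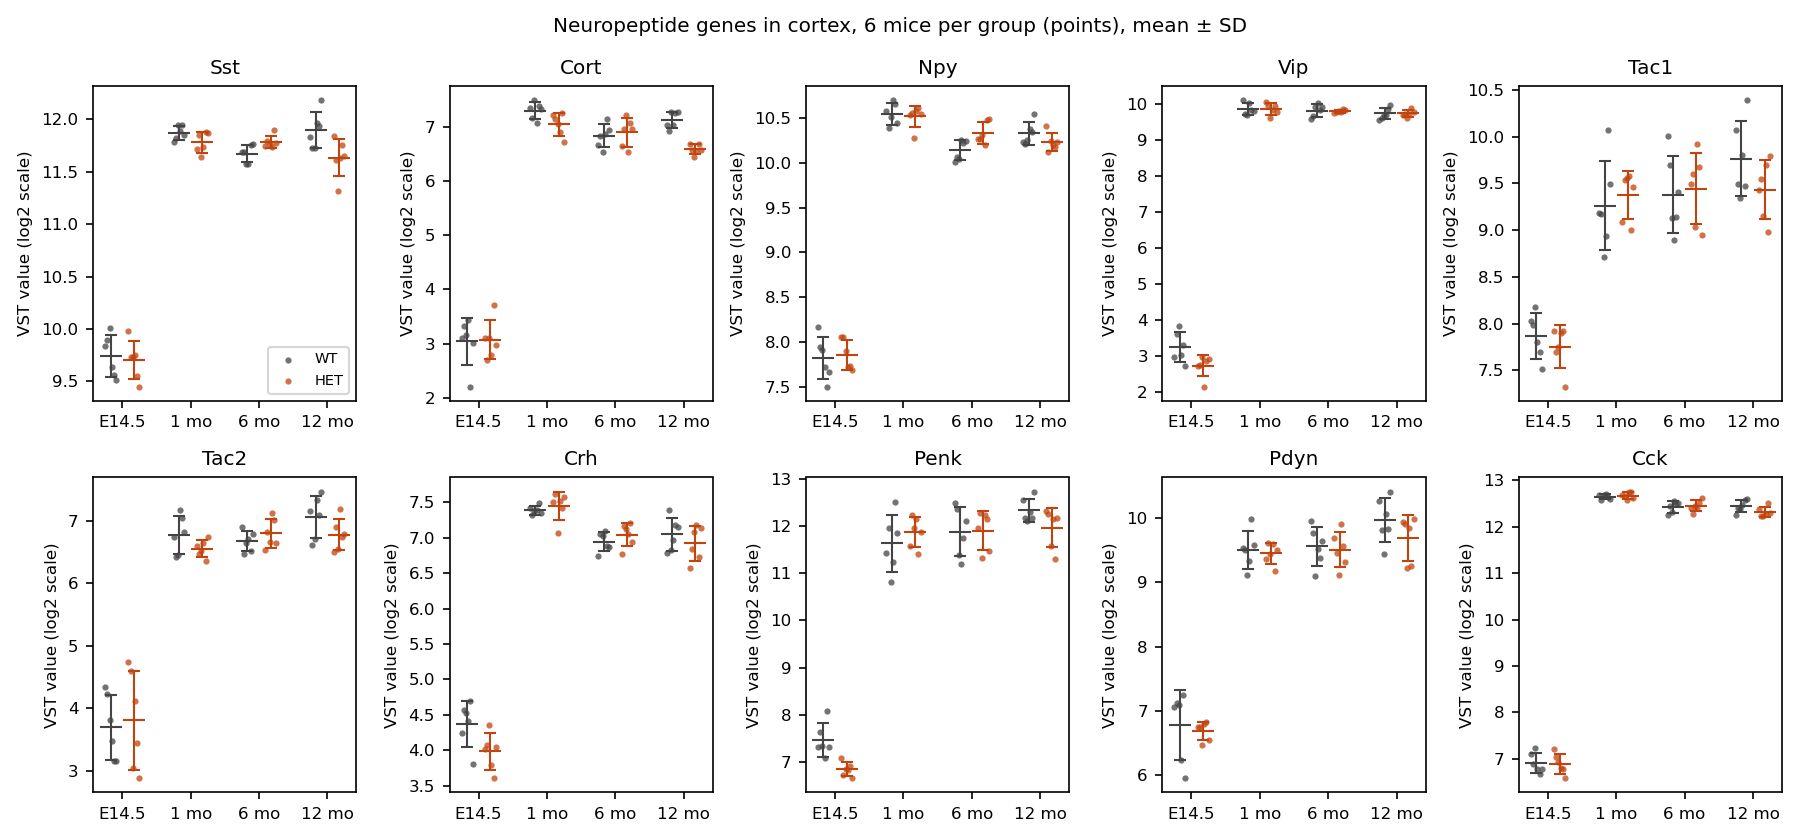
VST expression (log2 scale, y axis, a separate range in each panel) of the 10 neuropeptide genes against age (x axis), with 1 point per mouse and bars for the mean ± SD of 6 mice, WT in grey and HET in orange. All 10 genes were higher at 1 month than at E14.5, and Cort at 12 months is the 1 postnatal position where all 6 HET points lie under all 6 WT points, which 0.497% of all genes did at that age.

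All 10 neuropeptide genes rose between E14.5 and 1 month in both genotypes, and in every case all 6 mice at 1 month lay above all 6 embryos. Of all genes tested, this step called 43.9% higher in WT and 44.5% higher in HET mice (85.5% and 86.5% in either direction), and 34.9% and 35.4% had all 1 month mice above all embryos. The median difference over all genes was 0.03 in WT and 0.04 in HET mice. The interneuron peptide Vip (chr10:4698927-4707323) had a difference of 6.61 ± 0.14 (SE, n = 6 a group) in WT and 7.12 ± 0.10 in HET mice. Cck (chr9:121398943-121404807), a satiety peptide in the gut and an abundant modulator in the cortex, had 5.74 ± 0.08 and 5.78 ± 0.08. Cort followed with 4.25 ± 0.15 and 3.97 ± 0.14, and the enkephalin precursor Penk (chr4:4060678-4065966) with 4.18 ± 0.23 and 5.04 ± 0.18. Tac2 (neurokinin B, chr10:127162448-127168823), Crh (the stress hormone corticotropin-releasing hormone, chr3:19593401-19595396), Pdyn (dynorphins, chr2:129512301-129525580), Npy (chr6:49772709-49779506) and Sst had differences of 2.08 to 3.46. Tac1 (substance P and neurokinin A, chr6:7505071-7512973) had the smallest, 1.39 ± 0.20 in WT and 1.62 ± 0.16 in HET mice. All adjusted p-values (adjp) for this step were at or below 5.0e-07 (limma, Benjamini-Hochberg over all genes).

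At E14.5 Sst was already far above the baseline, while Cort and Vip were near it. In WT embryos Sst ranged from 9.52 to 10.01 with a median of 9.74. Cort ranged from 2.21 to 3.44 with a median of 3.13, and Vip from 2.73 to 3.84 with a median of 3.17. The group means of Cort and Vip were 2.74 to 3.25 in both genotypes, so their rise to 1 month is understated on this scale. Penk, Pdyn, Tac1, Npy and Cck had WT means of 6.79 to 7.87 at E14.5, and Tac2 and Crh of 3.69 and 4.37.

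From 1 to 6 months a smaller set fell. In WT mice 4 of 10 genes fell, against 7.91% of all genes called lower and 14.8% in either direction: Cort by 0.46 ± 0.15 (adjp = 0.0496), Crh by 0.44 ± 0.12 (adjp = 0.0213), Npy by 0.40 ± 0.09 (adjp = 0.0026) and Cck by 0.22 ± 0.08 (adjp = 0.0734). In HET mice 3 of 10 fell, against 10.8% of all genes called lower and 21.8% in either direction: Crh by 0.41 ± 0.13 (adjp = 0.0288), Cck by 0.22 ± 0.08 (adjp = 0.0465) and Npy by 0.18 ± 0.07 (adjp = 0.0824). Each WT value of Npy, Crh and Cck at 6 months was under each value at 1 month, as in 4.73% of all genes. The same held for WT Sst, whose difference of −0.20 ± 0.08 had adjp = 0.115 and was called when the 2 ages were fitted alone (adjp = 0.0053). In HET mice the Cort difference at this step was −0.15 ± 0.14 and that of Sst was within its SE of 0. Whether the step differed between the genotypes was not tested. The opioid and tachykinin genes Penk, Pdyn, Tac1 and Tac2 had differences between −0.10 and 0.25, none of them called.

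From 6 to 12 months none of the 10 genes was called in either genotype by limma, where 0.0115% of all genes were called in WT and 1.88% in HET mice. At an unadjusted p below 0.05, met by 7.40% of all genes in WT and 13.3% in HET mice, there were 2 in WT, Sst at 0.22 ± 0.08 and Npy at 0.19 ± 0.09, and 1 in HET, Cort at −0.31 ± 0.14. In WT, 9 of the 10 differences of this step were above 0 (46.8% of all genes), and in HET 8 of the 10 were below 0 (50.9% of all genes), the others being Penk at 0.06 ± 0.18 and Pdyn at 0.18 ± 0.13. The striatal list mean was 9.40 at 6 and 9.79 at 12 months in WT, where Penk, Pdyn and Tac1 had differences of 0.45, 0.41 and 0.39, and 9.38 and 9.50 in HET mice.

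At 12 months Cort was lower in HET than in WT cortex. It was the 1 of the 10 genes called, against 0.0405% of all 17288 genes tested called lower and 0.0463% in either direction. The 10 genes were chosen with earlier results of these data known. The count of called genes and the p-values given here are therefore not those of an unselected set. Cort was 6.92, 7.13 and 7.27 in WT mice (lowest, median and highest) and 6.44, 6.57 and 6.69 in HET mice. All 6 HET mice lay below all 6 WT mice, as in 0.497% of all genes, with means of 7.12 ± 0.15 and 6.58 ± 0.09 (SD, n = 6). The difference was −0.54 ± 0.09 (SE, adjp = 0.0747), or 68.7% of the WT level, and it was the 4th smallest p of all genes. The exact permutation test (two-sided) gave p = 0.0022, the smallest that 6 against 6 mice allow, in a family of 40 such tests of 10 genes at 4 ages. Leaving out 1 mouse at a time gave −0.58 to −0.51 with adjp from 0.040 to 0.228, and the call was lost without WT replicate 1, 5 or 6 or HET replicate 2, 3, 4 or 5. In bulk cortex fewer Cort neurons and less Cort RNA per neuron cannot be told apart. Without HET replicates 3 and 5, the mice with the lowest striatal markers, the Cort difference was −0.53 ± 0.10 and with the striatal mean as a covariate −0.52 ± 0.10, but neither fit called it (adjp = 0.42 and 0.41). Cort lies 357 bases from Apitd1, a kinetochore gene on the same strand (chr4:148501230-148511738) chosen for display after its values were seen, which had 5.67 in WT and 5.63 in HET mice (difference −0.04 ± 0.12).

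At earlier ages the genotypes overlapped in Cort. At 1 month WT mice had 7.07, 7.33 and 7.48 and HET mice 6.71, 7.10 and 7.26, with a difference of −0.25 ± 0.10 (adjp = 0.49, exact permutation p = 0.0368). At 6 months the values were 6.53, 6.85 and 7.15 in WT and 6.52, 6.95 and 7.21 in HET mice, with means of 6.83 ± 0.21 and 6.89 ± 0.26. At E14.5 the means were 3.04 ± 0.44 and 3.07 ± 0.36. Over the 3 postnatal ages the HET mean was 7.04, 6.89 and 6.58 and the WT mean 7.29, 6.83 and 7.12. The 6 to 12 month step was called in neither genotype.

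Sst, whose peptide marks the interneurons that target the outer dendrites of pyramidal cells, was also lower in HET mice at 12 months, but with overlap. WT mice had 11.72, 11.89 and 12.18 and HET mice 11.32, 11.64 and 11.84. The difference was −0.26 ± 0.09, or 83.4% of the WT level (adjp = 0.29, exact permutation p = 0.0238). A single fit of all 48 samples, which pools the spread over ages, called Sst (adjp = 0.0814) and Cort (adjp = 0.0520), 2 of 10 against 3.004% of all genes. Without HET replicates 3 and 5 the Sst difference was −0.21 ± 0.09. At the younger ages the Sst difference went both ways. At 6 months HET mice were higher, with 11.73, 11.77 and 11.89 against 11.57, 11.69 and 11.76 in WT mice, 4 of 6 HET mice lying above all WT mice (0.11 ± 0.04, adjp = 0.57, exact permutation p = 0.0216). At 1 month the difference was −0.09 ± 0.05 and at E14.5 the means were 9.74 ± 0.20 and 9.70 ± 0.18.

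**Figure D2:**
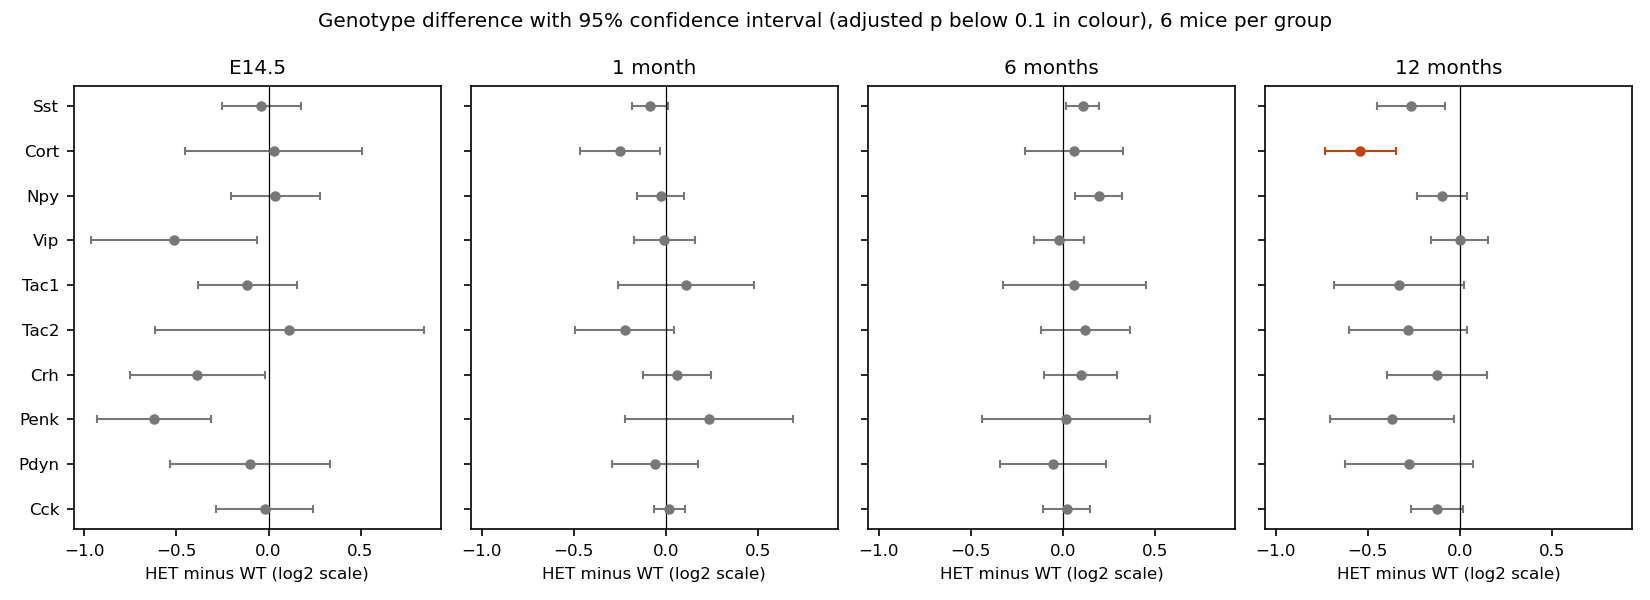
HET minus WT difference (x axis, log2 scale) of each gene (y axis) at each age, with 95% confidence intervals from the limma fit of that age and 6 mice per group. Cort at 12 months is the 1 point in colour (adjp below 0.1), and all 10 points at 12 months lie at or below 0.

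All 10 differences at 12 months were below 0, with a median of −0.27, beside a median of 0.005 over all genes and 48.6% of all genes below 0. These genes vary together from mouse to mouse, so the 10 signs are not independent. Penk was 12.11, 12.23 and 12.73 in WT and 11.31, 12.17 and 12.33 in HET mice, a difference of −0.37 ± 0.16 (adjp = 0.39). The lowest HET values, 11.31 and 11.59, were those of the mice with the lowest striatal markers. Tac1 had a difference of −0.33 ± 0.17, Tac2 of −0.28 ± 0.15 and Pdyn of −0.27 ± 0.16, with adjp between 0.46 and 0.52. Without HET replicates 3 and 5 these became −0.11 ± 0.11 for Penk, −0.15 ± 0.17 for Tac1, −0.22 ± 0.17 for Tac2 and −0.05 ± 0.14 for Pdyn. With the striatal mean as a covariate they were −0.12, −0.14, −0.23 and −0.04. Cck (−0.12 ± 0.07), Crh (−0.12 ± 0.13) and Npy (−0.10 ± 0.06) were within 0.13 of 0, and Vip had the same mean of 9.73 in both genotypes, with a 95% interval of the difference from −0.16 to 0.15.

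The difference between genotypes was then compared between ages in a single fit of all 48 samples. None of the 10 genes was called for the effect at 12 months minus that at E14.5, at 1 month or at 6 months by limma, where 0.0635%, 0.00578% and 0.0578% of all genes were called. Against 6 months, 3 of the 10 genes had an unadjusted p below 0.05, as did 8.68% of all genes. The effect at 12 months minus that at 6 months was −0.37 ± 0.11 for Sst (adjp = 0.29), −0.60 ± 0.21 for Cort (adjp = 0.37) and −0.29 ± 0.11 for Npy (adjp = 0.43). Against E14.5, 2 had such a p (1990 of all 17311 genes), Vip (0.51 ± 0.17) and Cort (−0.57 ± 0.21), and against 1 month there was none (11.1% of all genes). The lower Cort level was therefore called at 12 months and not at younger ages, but its difference from those ages did not pass the test.

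At E14.5 none of the 10 genes was called by limma in the fit of that age (0.00593% of all genes were), although 3 had an unadjusted p below 0.05, all lower in HET, beside 4.56% of all genes. Penk was 7.08, 7.32 and 8.09 in WT embryos and 6.65, 6.83 and 7.07 in HET embryos. All 6 HET embryos lay below all 6 WT embryos, as in 0.0889% of all genes, with a difference of −0.62 ± 0.14, or 65.0% of the WT level (adjp = 0.88, exact permutation p = 0.0022). The highest WT values, 8.09 and 7.63, were in replicates 5 and 2, which also had high midbrain, hindbrain and spinal cord markers. Replicate 3 had the same mean of these markers as replicate 2, 5.17, but a Penk value of 7.33. Without WT replicates 2, 3 and 5, an exclusion chosen after seeing the data, the Penk difference was −0.39 ± 0.12. With that marker mean as a covariate it was −0.41 ± 0.14. The exclusion leaves fewer WT than HET embryos. On the opposite strand Penk overlaps a long noncoding RNA gene, A830012C17Rik, and whether reads were assigned by strand is not given in the sources used here.

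Vip was near the baseline at E14.5, and Crh was low but further above it. Vip was 2.73, 3.17 and 3.84 in WT and 2.16, 2.81 and 2.98 in HET embryos, a difference of −0.51 ± 0.21 (adjp = 0.98, exact permutation p = 0.0346). It was the 1 of the 10 called in the fit of all 48 samples (adjp = 0.0487), against 0.537% of all genes. That fit pools the spread over ages and gave the Vip difference an SE of 0.12. The SD of Vip was 0.42 in WT and 0.30 in HET embryos, but 0.04 to 0.17 in the postnatal groups. Crh had means of 4.37 ± 0.32 and 3.99 ± 0.26, a difference of −0.39 ± 0.17 (adjp = 0.98, exact permutation p = 0.0519). Without WT replicates 2, 3 and 5, again an exclusion chosen after seeing the data, these differences were −0.18 ± 0.22 for Vip and −0.16 ± 0.20 for Crh. The part of the midbrain, hindbrain and spinal cord signal in these results was not tested beyond these fits. The other 7 genes at E14.5 had differences no larger than their SE, with means for Tac1 of 7.87 ± 0.24 and 7.75 ± 0.23 and for Pdyn of 6.79 ± 0.54 and 6.69 ± 0.14.

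At 1 month none of the 10 genes was called by limma (0.139% of all genes, and 0.214% in the fit of all 48 samples, where no member was called either), with Cort the 1 gene at an unadjusted p below 0.05 (8.80% of all genes). Tac2 had means of 6.77 ± 0.30 in WT and 6.55 ± 0.14 in HET mice, a difference of −0.22 ± 0.13. Penk had 11.64 ± 0.60 and 11.87 ± 0.32, a difference of 0.24 ± 0.22 that became −0.13 ± 0.08 with the striatal mean as a covariate. All 9 striatal genes had values above WT at this age, with a median of 0.39. The 95% intervals of the difference were narrowest for Cck (−0.06 to 0.10), Sst (−0.19 to 0.01) and Npy (−0.15 to 0.10).

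At 6 months again none of the 10 was called (0.0927% of all genes, and 0.0924% in the fit of all 48 samples), with Npy and Sst at an unadjusted p below 0.05 (7.59% of all genes), both higher in HET. Npy, which dampens excitatory transmission, was 10.01, 10.14 and 10.25 in WT and 10.20, 10.28 and 10.49 in HET mice. The difference was 0.20 ± 0.06 (adjp = 0.41, exact permutation p = 0.0173), and 5 of 6 HET mice lay above all WT mice. Crh (0.10 ± 0.09) and Tac2 (0.12 ± 0.11) had differences just over their SE. Penk at this age had 11.89 ± 0.53 and 11.91 ± 0.41, and the striatal list means were 9.40 ± 0.57 and 9.38 ± 0.37.

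The spread between mice of a group differed greatly between the genes. Over the 6 postnatal groups the median SD was 0.42 for Penk, 0.39 for Tac1, 0.30 for Pdyn and 0.24 for Tac2, against 0.09 for Sst, 0.11 for Cck, 0.12 for Npy and 0.16 for Vip. Deviations from the group means were then correlated over the 36 postnatal mice, in 45 pairs of genes, with permutation within groups. The pairs with an adjusted permutation p below 0.05 fell into 2 sets of genes. In the first, Tac1 and Penk had r = 0.91, Tac1 and Pdyn r = 0.88 and Penk and Pdyn r = 0.84 (Spearman's rho 0.86, 0.86 and 0.82), each with p = 1e-05, the smallest these permutations can give (adjusted p = 0.00011). Without the 2 mice farthest from the median on the first-named gene, r was 0.89, 0.86 and 0.81. Within replicates 1 to 3 and within replicates 4 to 6 these 3 pairs had r from 0.84 to 0.95. Tac2 was joined to this set through Tac1 (r = 0.56, rho = 0.53, adjusted permutation p = 0.011) and Pdyn (r = 0.52, rho = 0.52, adjusted permutation p = 0.025).

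In the second set, Npy and Cck had r = 0.70 (rho = 0.75, adjusted permutation p = 0.00011), Vip and Cck r = 0.63 (rho = 0.62, adjusted permutation p = 0.00045), Npy and Vip r = 0.59 (rho = 0.55, adjusted permutation p = 0.0041) and Sst and Npy r = 0.55 (rho = 0.55, adjusted permutation p = 0.0059). Sst and Cck had r = 0.48 and Sst and Cort r = 0.37 (rho = 0.53 and 0.44), both with an adjusted permutation p = 0.044. Without the 2 farthest mice these 6 values were 0.67, 0.62, 0.47, 0.57, 0.40 and 0.33, and within each set of 3 replicates they ranged from 0.27 to 0.72. Cort and Cck had r = 0.44 (adjusted permutation p = 0.055). Crh passed with none of the other 9 genes, its highest r being 0.32 with Vip. In all, 11 of 45 pairs had an adjusted p below 0.05, with 6 in WT mice alone and 3 in HET mice alone, where 18 mice were left. The 3 pairs of Penk, Tac1 and Pdyn passed in both genotypes. The other 3 in WT mice were those of Npy, Vip and Cck, and no pair of the second set passed in HET mice, where Npy and Cck had r = 0.60 and Vip and Cck r = 0.54 (adjusted permutation p = 0.13 and 0.084).

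**Figure D3:**
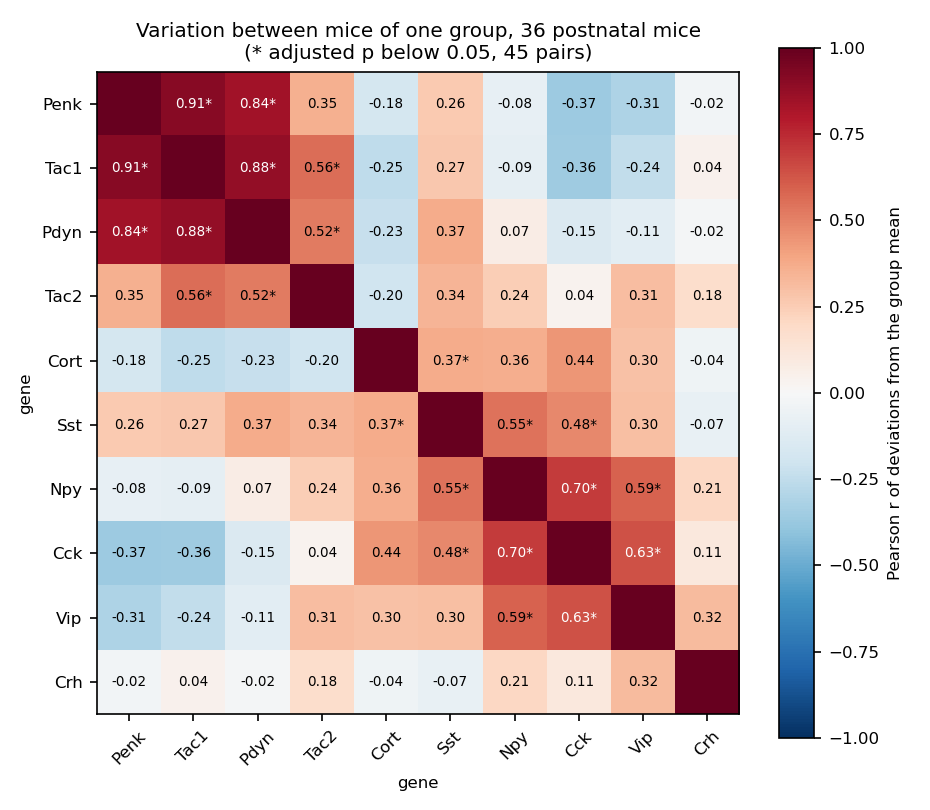
Pearson's r (colour and printed value) between the 10 genes (both axes), from deviations of each mouse from its group mean over 36 postnatal mice, with an asterisk for an adjusted permutation p below 0.05 over 45 pairs. Penk, Tac1 and Pdyn form a block of r from 0.84 to 0.91, and the values among Sst, Npy, Cck and Vip run from 0.30 to 0.70.

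Penk, Tac1 and Pdyn, but not Tac2 beyond the test, moved with markers of striatal projection neurons. The mean of the 9 striatal genes had r = 0.92 with Penk, 0.79 with Tac1 and 0.77 with Pdyn (rho = 0.88, 0.78 and 0.74), each with an adjusted permutation p = 0.00013 over 40 relations of the 10 genes with 4 marker lists. Within each set of 3 replicates the 3 values of r were 0.75 or more. Without the 2 farthest mice they were 0.89, 0.77 and 0.78. Tac2 had r = 0.27 with the striatal mean, Sst 0.25 and Cort −0.07 (adjusted permutation p = 0.44, 0.42 and 0.83). How much of the Penk, Tac1 and Pdyn in these samples came from striatum was not tested. Of the other relations, Cck and the mean of 9 GABAergic neuron genes had r = −0.52 (rho = −0.46, adjusted permutation p = 0.028 for r and 0.063 for rho), with −0.67 in replicates 1 to 3 and −0.55 in replicates 4 to 6 and −0.51 without the 2 farthest mice. No relation with the mean of 12 activity-induced genes passed. That of Cort was r = −0.34 (adjusted permutation p = 0.29).

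**Figure D4:**
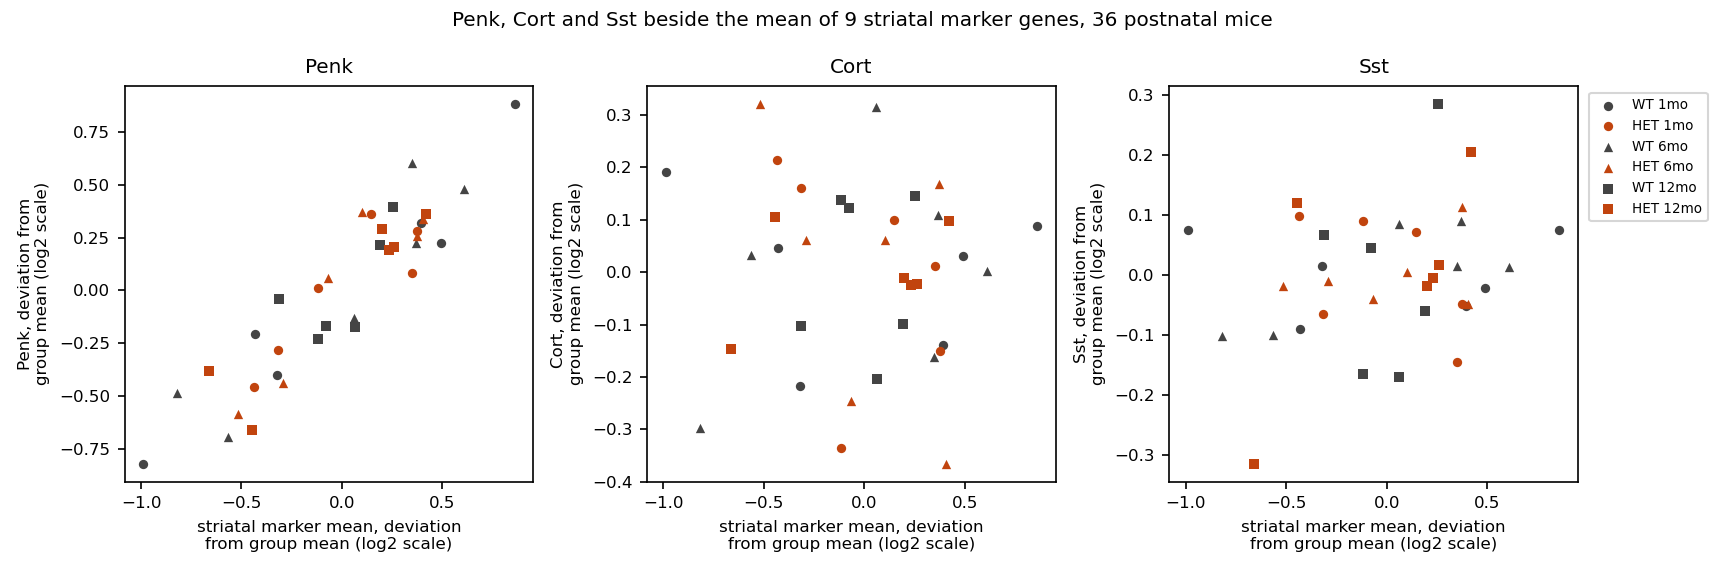
Deviation of Penk, Cort and Sst from the group mean (y axes, log2 scale) against that of the mean of 9 striatal marker genes (x axis, log2 scale) in 36 postnatal mice, with colour for genotype and shape for age. Penk rises along the striatal mean (r = 0.92), whereas Cort (r = −0.07) and Sst (r = 0.25) do not follow it closely.

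The genes whose deviations were most like those of each neuropeptide gene were sought among 16957 genes over the same 36 mice, as a description with no test. For Penk they were Pde1b (r = 0.94), Serpina9 (0.94) and the dopamine receptor gene Drd1 (0.93), for Tac1 they were Penk (0.91), Klhl13 (0.90) and Pdyn (0.88), and for Pdyn they were Tac1 (0.88), Rarb (0.85) and Strip2 (0.85). Pde1b, Drd1 and Rarb are well known for strong expression in the striatum. Cck was most like Ncald (0.81), Nrgn (0.80) and Ube2e2 (0.78), the first a neuronal calcium sensor and the second a calmodulin-binding protein of excitatory neurons. Tac2 was most like Gap43 (0.78), Tmem91 (0.75) and Hsbp1 (0.73). Sst was most like Degs1 (0.70), Tmem50a (0.69) and Syt5 (0.69), Npy like Cck (0.70), Ctsb (0.68) and Bsg (0.67), and Vip like Smoc2 (0.72), Arl6ip5 (0.69) and Creb3 (0.69). For Crh they were Inhba (0.67), Glt28d2 (0.65) and Scg2 (0.65), of which Inhba and Scg2 are induced by neuronal activity. With the mean of the activity-induced genes, Inhba among them, Crh had r = 0.21 (adjusted permutation p = 0.51). That r was 0.63 in replicates 1 to 3 and −0.13 in replicates 4 to 6. For Cort they were Fgfbp3 (0.68), Gm3604 (0.63) and the class I histocompatibility gene H2-K2 (0.59).

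The receptors of these peptides were not called at any age in the single-age limma fits, with 0 of 19 tested at E14.5 and 0 of 20 at each later age. At 12 months 10 were above and 10 below 0, the median being 0.007. An unadjusted p below 0.05 was found for 4 of the 20, beside 11.6% of all genes. The lowest p values were those of Vipr2, a receptor of VIP, with 4.87 in WT and 6.02 in HET mice (1.15 ± 0.33, adjp = 0.24), and Sstr5, a somatostatin receptor, with 4.58 in WT and 3.89 in HET mice (−0.69 ± 0.25, adjp = 0.32). The 15 genes of precursor processing and dense-core vesicles were likewise not called, with 8 above and 7 below 0 and 1 at an unadjusted p below 0.05. Vgf, a secreted granin-like protein, had −0.21 ± 0.09 (adjp = 0.39) and Pcsk1, the convertase that cuts many precursors, −0.19 ± 0.12 (adjp = 0.54). Of 5 genes for peptide binding or breakdown, Crhbp, the binding protein of CRH that many Sst interneurons express, had 9.41 in WT and 9.07 in HET mice (−0.34 ± 0.08, unadjusted p = 5.2e-04, adjp = 0.21). The peptidase gene Dpp4 had 0.29 ± 0.15 (adjp = 0.46). Of 9 other neuropeptide genes, 5 had values below 0, the median was −0.13, and limma called none, with 0 at an unadjusted p under 0.05. Cartpt had −0.34 ± 0.18 (adjp = 0.47) and Pthlh −0.15 ± 0.10 (adjp = 0.57).

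Among markers of the interneurons that make these peptides, none was called at 12 months. Of 9 genes shared by GABAergic neurons all 9 were above 0 (51.4% of all genes), with a median of 0.14, and the transcription factor gene Dlx1 had 0.30 ± 0.16 (adjp = 0.47). The mean of these 9 genes was 10.57 to 10.69 in WT and 10.59 to 11.07 in HET mice, highest in HET replicate 3. Whether the 9 signs are independent was not tested. Of 10 genes of interneurons from the medial ganglionic eminence 6 were above and 4 below 0, with a median of 0.02. Grin3a, a glutamate receptor subunit of Sst cells, had 0.24 ± 0.10 (adjp = 0.35) and Lhx6, which specifies this lineage, −0.15 ± 0.08 (adjp = 0.44). Of 6 genes of interneurons from the caudal ganglionic eminence 5 were above 0, with a median of 0.07, Adarb2 at 0.22 ± 0.08 (adjp = 0.33) and Prox1 at −0.28 ± 0.15 (adjp = 0.47). The largest difference of this list was that of Calb2, a calcium-binding protein gene named here after its values were seen, at 0.50 ± 0.33 (adjp = 0.56). No gene of these 3 lists was called at any age by limma in the single-age fits, and at 12 months 1 gene of each list had an unadjusted p below 0.05. At the 3 younger ages likewise no gene of the processing, binding or other neuropeptide lists was called, and 0 to 1 of each had an unadjusted p below 0.05. For receptors that number was 1 at E14.5, 3 at 1 month and 1 at 6 months. Of the GABAergic genes 5 of 9 had one at E14.5, beside 4.56% of all genes, and 4 of the 9 were above 0. In the fit of all 48 samples 2 genes of these 7 lists were called (Pvalb is named here after its values were seen), both at E14.5 and both lower in HET embryos, where the midbrain, hindbrain and spinal cord markers were lower too: Crhbp at 4.58 in WT and 3.93 in HET (−0.65 ± 0.28 in the fit of that age, adjp in the joint fit = 0.0652), and Pvalb, a calcium-binding protein of fast-spiking interneurons, at −0.89 ± 0.37 (adjp in the joint fit = 0.0509).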

How the data were processed

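Per the labels and the methods, polyA RNA was aligned to mm9 with STAR 2.5.2b and quantified with Salmon 0.11.3, and the authors deposited log2-scale variance-stabilized values from DESeq2 (the notes list DESeq 1.22.2) for 24444 genes in 48 samples. The library kit is named differently in the labels (TruSeq) and the methods (KAPA, stranded). The methods correct for a batch that they do not name. Per gene, replicates 1 to 3 and 4 to 6 had means over all samples equal to within 3.2e-14, so no mean difference between these sets is left in the table.

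Each mouse was 1 replicate. HET and WT were set against each other within each age with limma 3.58.1 (R 4.3.3, intensity trend) over all genes with a mean at least 0.5 above the baseline of 2.14, which 15.7% of values equal and 6.06% lie below, and called at a Benjamini-Hochberg adjusted p below 0.1. Age steps used 1 fit of 24 samples per genotype. The fit was tested on simulated data. Exact permutation tests used all 924 splits of 12 mice, and correlations 100000 permutations within groups. The replicate number was not a block. The named genes were the 10 members, the 2 genes with the lowest p at 12 months in each of 7 lists (1 of these is not reported here), any gene of these lists called at an age, and the 3 genes most like each member. Members and lists were chosen with earlier results of these data known. Counts, depth and the authors' test results were not used here.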

Additional observations from a re-analysis of the deposited data

Results flagged for a closer look

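In 5 of 80 groups of 6 mice (10 genes in 8 groups), 1 mouse lay further from the rest than Dixon's criterion allows, a rate that chance alone gives in about 1 in 20 groups. Crh and Npy were both low in HET replicate 3 at 1 month, at 7.06 for Crh (the other 5 mice 7.42 to 7.61) and 10.28 for Npy (the others 10.53 to 10.61). Sst was high in HET replicate 5 at 6 months, at 11.89 (the others 11.73 to 11.79). At E14.5, Cort was low in WT replicate 5 at 2.21 (the others 3.02 to 3.44) and Vip was low in HET replicate 4 at 2.16 (the others 2.74 to 2.98), both values next to the baseline of 2.14.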

How the results depend on the processing

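Depth was not used here, so precision rests on the spread between mice. Single-gene alternatives were run for differences at least as large as their SE. Of 195 recomputed counts 167 stayed within 1.5 times the main count, and of 1046 single-gene values 1013 kept direction and call. Quantile normalization and median centring shifted the median gene by at most 0.0088 and 0.0115.

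Of the 10 genes, 1 was called at 12 months (Cort), and the count was 0 with the replicate block (Cort adjp = 0.21), in replicates 1 to 3 alone, in replicates 4 to 6 alone, at an adjusted p below 0.05, with the striatal mean as a covariate, with the activity mean as a covariate (adjp = 0.102) and without HET replicates 3 and 5, a setting chosen after seeing the data. In these settings the Cort difference was −0.58 to −0.51. Leaving out 1 mouse gave 0 to 1 called, 0 without WT replicate 1, 5 or 6 or HET replicate 2, 3, 4 or 5, with a Cort difference of −0.58 to −0.51 (adjp 0.040 to 0.228). Both fits of all 48 samples, without and with a block, called 2 genes at 12 months (Cort and Sst) and 1 at E14.5 (Vip). Without the block 3.004% and 0.537% of all genes were called at these 2 ages. By the exact permutation test at an unadjusted p below 0.05, the 1 month count was 1 (Cort), and that of every other age was 2 (Vip and Penk, Sst and Npy, and Sst and Cort in order of age). The exact test was run on the 10 genes only, so it has no share over all genes. By limma, an unadjusted p below 0.05 was met by 4.56%, 8.80%, 7.59% and 11.6% of all genes in order of age. With the replicate block, 1 gene each was called for the effect at 12 months minus that at E14.5 (Vip, adjp = 0.091) and at 6 months (Sst, adjp = 0.074). Without the block none of the 10 was called in these 2 comparisons, beside 0.0635% and 0.0578% of all genes. The shares of all genes called in the fits with a block are not given here, so the counts with a block cannot be judged against them. Same-numbered WT and HET samples had a mean correlation of deviations of 0.23 at E14.5, where 4 of 6 pairs passed 0.1 and 4 of 6 WT samples correlated best with their own number, a hint from the data and not the design, and of −0.03 to 0.05 at the other ages. Not every pair passed 0.1 at any age, so the numbers were not taken to pair the samples.

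Correlated pairs numbered 6 in WT mice alone, 3 in HET mice alone, 3 in replicates 1 to 3 alone and 4 in replicates 4 to 6 alone, against 11. The sign turned for Penk at 1 month in replicates 4 to 6 alone (−0.054) and with the striatal covariate (−0.13), for Tac2 at 6 months in replicates 1 to 3 alone (−0.0033) and for Npy at 12 months in replicates 1 to 3 alone (0.023). From 1 to 6 months, Npy in HET mice lost its call without the filter, without the intensity trend, at the stricter threshold, with the block and in the joint fit (adjp 0.082 to 0.128), and Cck in WT mice at the stricter threshold and with the block (adjp = 0.108). The cause of these changes was not tested.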
